A study of Mus musculus with 6 samples.

Results

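The Ly6 and uPAR domain genes *Ly6a*, *Ly6c1*, *Ly6d*, *Ly6e*, *Ly6g6c*, *Lypd2*, *Lypd3*, *Slurp1*, *Psca* and *Lynx1* were followed in organoids of the mouse esophagus and stomach. They are the 10 family genes chosen by name from the 34298 gene names of the array, and every non-control probe that carries one of these names was taken, which gave 12 probes of 55681. *Ly6c1* and *Lynx1* had 2 probes each and the other genes had 1. All 12 probes were well above the local background on all 6 arrays, so that no member was lost to a filter on dim probes.

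Organoids were raised from the epithelium of both tissues, from mice numbered 1, 2 and 4 in the labels, and total RNA of passage 0 cultures was hybridized to single-color Agilent arrays, 3 per tissue. The titles of all 6 arrays carry the word Control, and no treated arrays enter the comparison. The cultures were taken on day 8, and on day 7 for the stomach of mouse 4. The study worked with wild-type C57BL/6 females and with *Krt5*, *Krt8* and *Axin2* lines that carry an inducible Cre and a tdTomato reporter. Organoids were also grown from the *Krt5* and *Krt8* lines. The labels of these arrays give neither genotype, strain nor age. By the methods of the paper, stomach organoids came from glands of the corpus and were grown with WNT3A and R-spondin1 conditioned medium and gastrin. The esophageal medium of the methods lacked WNT3A and R-spondin1 but held forskolin. Both media held EGF, noggin, FGF-10, a TGF-β receptor kinase inhibitor and a ROCK inhibitor. The labels of these arrays name no medium, and the paper also grew esophageal organoids with WNT3A and R-spondin1. Where the media of the methods were used, tissue and medium cannot be told apart in any value below. The 3 arrays of a tissue carry different mouse numbers and are taken as separate animals, and the labels give the same 3 mouse numbers in both tissues. That equal numbers mark one animal is a reading of the labels, and mouse 1, 2 or 4 below means the number. The esophagus array of mouse 4 lies alone on a second slide with its own scan, and its effect and that of the slide cannot be told apart.

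The Ly6 and uPAR (LU) domain is a small fold of finger-like loops that is held together by disulfide bonds between conserved cysteines. Most family members are attached to the outer face of the plasma membrane through a glycosylphosphatidylinositol (GPI) anchor, while a few, such as SLURP1, are secreted, and members are known as markers of epithelial and blood cell states, as modulators of nicotinic acetylcholine receptors and, in the case of the urokinase receptor, as regulators of proteolysis at the cell surface. In squamous epithelia, several members are known as products of keratinocytes, and others are known from glandular and blood cells. Most of the genes sit side by side in a few clusters of the genome.

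The cysteine pattern of the fold may be read in array probes that have an open frame with cysteine codons. The following 2 probes are shown, after all 12 were read, because the *Psca* probe is the one with adjacent cysteine codons and because the *Ly6c1* probe is the member probe with more than 1 target. They are 60 bases long, written 5′ to 3′, with the cysteine codons of the open frame that holds most of them in capitals. That they lie in coding sequence was not checked against an annotation.
Psca probe A_51_P253897: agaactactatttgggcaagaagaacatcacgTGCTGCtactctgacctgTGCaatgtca
Ly6c1 probe A_55_P1961499: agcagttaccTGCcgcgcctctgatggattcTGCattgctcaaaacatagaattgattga
The *Psca* probe, with 2 open frames, holds 3 cysteine codons in the frame shown, of which 2 are adjacent, as is known for the end of the LU domain. The *Ly6c1* probe holds 2 cysteine codons, and its listed transcripts belong to both *Ly6c1* and its neighbor *Ly6c2* in the RefSeq gene table, so that its signal cannot be given to either gene. The listed transcripts of each of the other 11 probes belonged to a single gene. In which exon or UTR the probes lie was not analysed here.

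Markers of the epithelia followed the labels of the arrays. Among the markers of squamous basal cells, 6 of 7 genes had a probe that was higher in the esophagus organoids, and 8 of 10 suprabasal markers were higher there. All 11 columnar markers were higher in the stomach organoids. *Krt5* stood at 17.07 to 17.08 on the esophagus arrays and at 4.85 to 5.39 on the stomach arrays, while *Krt8* stood at 5.21 to 5.83 and at 16.65 to 16.88. The largest differences among basal markers were those of the keratins *Krt5* (11.93 ± 0.17), *Krt14* (11.30 ± 0.22) and *Krt15* (9.79 ± 0.45) and of the hemidesmosome collagen *Col17a1* (at least 747-fold). Among suprabasal markers they were those of the keratins *Krt6a* (at least 2673-fold) and *Krt13* (11.00 ± 0.31), of *Sprr3* (at least 668-fold) and of the protease inhibitor *Spink5* (at least 371-fold). Toward the stomach they were those of the trefoil factors *Tff2* (at least 6348-fold) and *Tff1* (-12.34 ± 0.16), of *Gkn2* (at least 4129-fold) and of *Krt8* (-11.24 ± 0.19). A lower bound is given where a gene was not above background on any array of the dimmer tissue, which is then set to the lowest signal well above background of each array, or to the probe's own signal where that is higher. In the dimmer tissue, *Krt14* and *Krt13* were above background on 2 of the 3 arrays and *Krt5*, *Krt15*, *Tff1* and *Krt8* on 1. The markers that went the other way were *Itga6* (-1.57 at its dimmer probe, 0.57 and not called at its brighter one), *Krt1*, which was not above background in the esophagus, and 1 of 4 probes of *Trp63*. The log2 scale of the deposited table, quantile normalized, is used throughout, differences are esophagus minus stomach, errors are standard errors of limma with n = 3 per tissue, and p-values are adjusted over all 55681 probes, with 0.05 as the limit of a call.

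Of the 12 probes, 4 were called. *Lypd3* and *Ly6d* were higher in esophageal organoids, and *Slurp1* and *Ly6e* were higher in stomach organoids. Over the whole array, 5.94% of probes were called toward the esophagus and 6.22% toward the stomach, and 16.2% of gene names had a called probe, beside 4 of these 10 genes. The values of the tissues did not overlap for 5 of the 12 probes, those of the 4 called genes and of *Ly6g6c*, against 28.6% of probes measured on all arrays. The count of 4 depends on single arrays. It was 1 without the stomach array of mouse 2, where *Lypd3* alone was called, 2 without that of mouse 1, and 6 without the esophagus array of mouse 1.

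**Figure D1:**
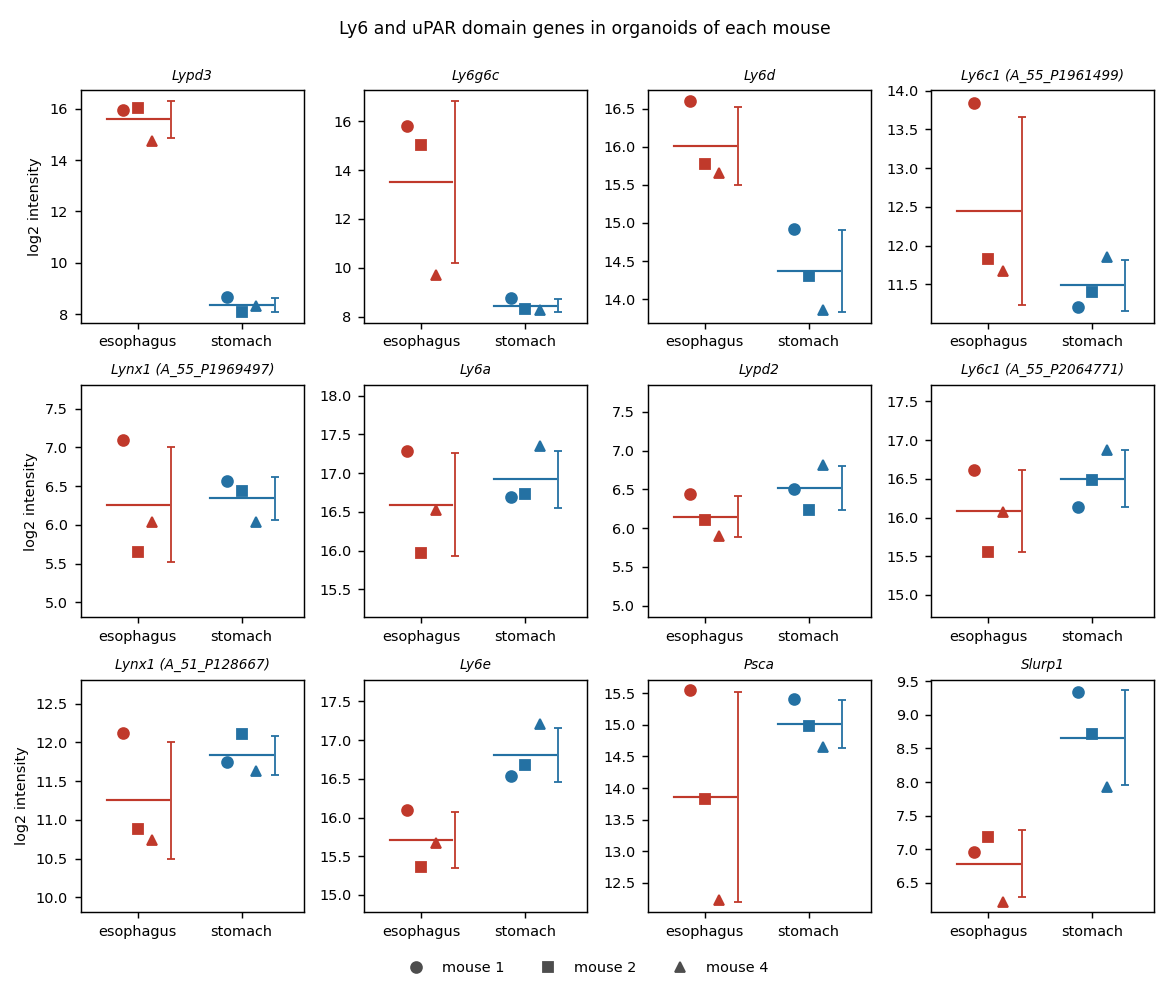
Log2 intensity of each of the 12 member probes in esophageal (red) and stomach (blue) organoids, with a symbol for each mouse, a line for the mean and a bar for the SD of 3 arrays; each panel has its own scale. *Lypd3* separates the tissues by 7.22, *Ly6g6c* of mouse 4 lies far below the other esophagus arrays, and the esophagus array of mouse 1 is the highest of its tissue for 10 of the 12 probes.

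*Lypd3* encodes C4.4A, a GPI-anchored relative of the urokinase receptor that is known from the suprabasal layers of squamous epithelia. Its probe at chr7:25425989-25426048 (mm9, plus strand) read 15.96, 16.03 and 14.76 in the esophagus organoids of mice 1, 2 and 4, and 8.66, 8.10 and 8.33 in the stomach organoids of these numbers. The tissues were far apart at every mouse number, with the esophagus array of mouse 4 lowest of its group. The difference was 7.22 ± 0.35 (95% interval 6.42 to 8.02), or 149-fold (limma adjusted p = 7.57e-06). Across the whole array, 0.244% of probes were higher in the esophagus by 6 or more on the log2 scale. The call held in all 14 alternative settings, where the difference ran from 6.99 to 7.63.

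*Ly6g6c*, encoded in the class III region of the major histocompatibility complex, showed the widest spread of all members. At chr17:35206934-35206993 (mm9, plus strand) it read 15.80 and 15.03 in the esophagus organoids of mice 1 and 2 but 9.72 in those of mouse 4. The stomach arrays read 8.76, 8.31 and 8.30. The lowest esophagus value thus lay above the highest stomach value, yet 6.08 separated the highest and lowest esophagus arrays, against 0.46 in the stomach. The mean difference was 5.06 ± 1.39 (95% interval 1.83 to 8.29) and missed the threshold (limma adjusted p = 0.0557). The mouse as a replicate block brought it past the threshold (limma adjusted p = 0.0380). Without the esophagus array of mouse 4, which is also the value within the first slide, the difference was 6.96 (limma adjusted p = 8.05e-06), and without that of mouse 1 it was 3.92 (limma adjusted p = 0.118). It stayed short of the threshold in 9 of the 14 alternatives.

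Many markers of the upper squamous layers were also lowest in mouse 4. Of the 10 suprabasal markers, 8 were lowest there at their brightest probe, by the mean over the 6 arrays (9 of 13 probes), beside 28.1% of the probes above background on all arrays. The exceptions were *Krt1* and both probes of *Ivl*, lowest in mouse 2, and the dimmer probe of *Krt10*, which was highest in mouse 4 (9.27, 9.55 and 9.66 in mice 1, 2 and 4). The next 3 genes are named after their values were seen, and *Serpinb2* is not on the suprabasal list. *Lor*, the cornified envelope protein loricrin, read 14.44, 16.94 and 10.38 in the esophagus organoids of mice 1, 2 and 4. *Sprr3*, a small proline-rich envelope protein, read 15.62, 15.19 and 11.62. *Serpinb2*, an inhibitor of plasminogen activators, read 12.22, 12.86 and 8.30. All 3 genes were thus lowest in mouse 4, as *Ly6g6c* was, and the summed level of the 10 suprabasal markers was 17.35 there against 18.36 and 18.73. Of the 12 probes of the 7 basal markers, 5 were lowest in mouse 4. These included the brightest probes of *Col17a1* and *Itgb4*, and that of *Trp63* where brightness is taken over the esophagus arrays alone, so that 2 or 3 of the 7 genes were lowest there. The choice of arrays did not alter the count of 8 suprabasal markers. The basal keratin *Krt5* read 17.07, 17.08 and 17.08, and the summed basal markers lay between 18.38 and 18.59. Whether the share of suprabasal cells sets the level of *Ly6g6c* was not tested, and fewer cells of a type cannot be told apart from less RNA per cell in these bulk samples. Among 14551 genes that each of the 3 arrays of either the esophagus or the stomach read above background, the 3 whose 6 values followed *Ly6g6c* most closely were *Vsig10l*, *Cpa4* and *Slc10a6*, with a root mean square difference of 0.43, 0.54 and 0.66 after centering each gene over the 6 arrays.

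*Lypd3* had its own nearest genes in *Pinlyp*, *Gm5478* and *Ada*, at 0.20, 0.27 and 0.31 on the same measure. *Pinlyp*, a phospholipase A2 inhibitor with LU domains, shares with *Lypd3* the chromosome 7 cluster. Its array values were 12.80, 12.67 and 11.81 in the esophagus and 5.84, 5.33 and 5.42 in the stomach, a difference of 6.90 ± 0.28 (limma adjusted p = 3.11e-06). The dim stomach signal of *Pinlyp* was above background on 2 of the 3 arrays.

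The stretches just upstream of *Lypd3* and *Ly6g6c* are given as the promoters of the 2 members with the largest differences. RefSeq promoter windows were at hand for 3 of the 10 members, *Lypd3*, *Ly6g6c* and *Ly6c1*. Shown are the 250 bases before the transcription start in GRCm38.p6, 5′ to 3′ on the plus strand, with matches to the searched motifs in capitals.
Lypd3, chr7:24636320-24636569: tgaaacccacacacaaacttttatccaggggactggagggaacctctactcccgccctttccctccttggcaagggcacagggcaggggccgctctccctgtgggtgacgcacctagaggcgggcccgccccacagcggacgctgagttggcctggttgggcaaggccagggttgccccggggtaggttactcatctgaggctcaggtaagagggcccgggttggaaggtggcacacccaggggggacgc
Ly6g6c, chr17:35067075-35067324: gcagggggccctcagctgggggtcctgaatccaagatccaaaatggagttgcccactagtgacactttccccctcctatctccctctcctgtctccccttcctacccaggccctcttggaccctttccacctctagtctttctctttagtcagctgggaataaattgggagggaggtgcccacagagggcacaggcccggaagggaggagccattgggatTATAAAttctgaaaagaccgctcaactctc
Motifs were searched on both strands as TGANTCA for AP-1, AACNGGTT for GRHL, CCNCNCCC for factors of the KLF and SP families, AGATAA for those of the GATA family, and TATAAA as the core of the TATA box. *Ly6g6c* held a TATA box that begins 30 bases before the start, a motif that 12.4% of 32851 windows of this length contain at any place. A window of *Ly6c1*, not shown, also held TATAAA, beginning 143 bases before its start. Each *Ly6c1* window held a KLF and SP match. The *Lypd3* window held no match to the 5 motifs and was richer in G and C, at 65.2% against 55.2% for *Ly6g6c* and a median of 52.4% over all windows. The other motifs were found in 6.75% (AP-1), 1.79% (GRHL), 45.9% (KLF and SP) and 9.99% (GATA) of windows. A match or its lack in these letters describes the window and says nothing of binding.

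*Ly6d*, known as a surface antigen of keratinocytes and of early lymphoid cells, was high in both tissues and higher in the esophagus. Its probe at chr15:74592551-74592610 (mm9, minus strand) read 16.60, 15.77 and 15.66 in esophageal organoids and 14.93, 14.31 and 13.86 in stomach organoids. Mouse 1 was highest and mouse 4 lowest in both tissues, and the groups did not overlap. The difference was 1.65 ± 0.34, or 3.13-fold (limma adjusted p = 0.0167), and was similar at each mouse number, at 1.68, 1.46 and 1.80. Without the stomach array of mouse 2 the difference was 1.62 and missed the threshold (limma adjusted p = 0.0744). The nearest patterns to *Ly6d* were those of *Sox2ot*, *Pcdhb18* and *Nbl1* (0.17, 0.19 and 0.22).

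*Slurp1* encodes a secreted LU protein that acts on nicotinic receptors of keratinocytes, and its loss causes a thickening of palm and sole skin. Here its level was higher in the stomach organoids. At chr15:74557085-74557144 (mm9, minus strand) it read 6.96, 7.18 and 6.22 in esophageal organoids and 9.33, 8.72 and 7.93 in stomach organoids. Every stomach value lay above every esophagus value, and mouse 4 was lowest in both tissues. The difference was -1.87 ± 0.38, or 3.66-fold toward the stomach (limma adjusted p = 0.0168). The call was lost without the stomach arrays of mouse 1 (limma adjusted p = 0.0591) or mouse 2 (limma adjusted p = 0.0744) and with a larger background offset of 50 (limma adjusted p = 0.0787). *Rara*, *Entpd2* and *Myh7* had the nearest patterns (0.18, 0.23 and 0.23).

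*Ly6e*, an interferon-inducible member that serves as the receptor of the placental fusogen syncytin-A in mice, was also higher in the stomach organoids. Its probe at chr15:74789592-74789651 (mm9, plus strand) read 16.09, 15.36 and 15.68 in the esophagus and 16.54, 16.68 and 17.21 in the stomach. The gap between the groups was narrow, since the esophagus array of mouse 1 lay 0.45 below the stomach array of the same number. The difference was -1.10 ± 0.25, or 2.14-fold (limma adjusted p = 0.0260). The call held in 7 of 14 alternatives, and with the processed signal scaled to the 75th percentile the difference was -0.77 (limma adjusted p = 0.266). It was also lost on leaving out any single array other than the esophagus array of mouse 1, with adjusted p between 0.0525 and 0.0835 (limma). *Krt1*, *Gcc2* and *BC080695* were nearest in pattern (0.12, 0.12 and 0.13), although the 3 esophagus values of *Krt1* were not above background.

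Because *Ly6e* and *Ly6a* are known to respond to interferon, 23 interferon-stimulated genes were set beside them. Among them, 8 were higher in the stomach organoids and 1, *Gbp2*, in the esophageal ones (0.94 ± 0.18, limma adjusted p = 0.0112), beside 16.2% of all gene names called. The median difference of the brightest probes was -0.48, beside 0.02 over all probes. The largest differences were those of the RNA sensor *Oas1a* (-4.45 ± 0.59), its relative *Oasl2* (-4.02 ± 0.80), the membrane tether *Bst2* (-2.17 ± 0.29) and the antiviral GTPase *Mx1* (-1.93 ± 0.30). In the stomach organoids the summed level of the list was 14.29, 14.44 and 13.11 in mice 1, 2 and 4, and *Ly6e* was highest in mouse 4. In the esophageal organoids the sum was 12.36, 12.40 and 12.73, and *Ly6e* was highest in mouse 1. The part of interferon in the *Ly6e* difference was not tested.

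**Figure D2:**
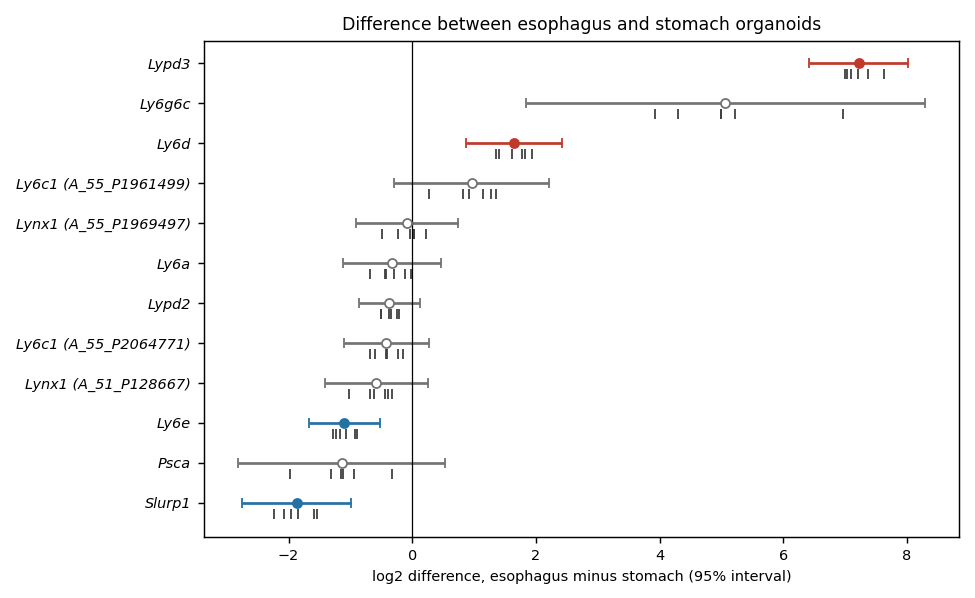
Log2 difference, esophagus minus stomach, of each member probe with its 95% interval (n = 3 per tissue); filled points are called (red, higher in the esophagus; blue, higher in the stomach), open points are not, and ticks below each point are the values with each array left out. The interval of *Lypd3* runs from 6.42 to 8.02, that of *Ly6g6c* from 1.83 to 8.29, and those of 7 of the 12 probes include 0.

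The remaining 6 genes were not called in either direction, and *Ly6g6c* is described above. *Psca*, the prostate stem cell antigen, which is also made by the epithelium of the stomach and bladder, read 15.54, 13.83 and 12.23 in the esophagus and 15.40, 14.97 and 14.65 in the stomach at chr15:74546879-74546938 (mm9, plus strand). The esophagus values spread over 3.32 and reached both above and below those of the stomach, which spread over 0.75. The difference was -1.14 ± 0.72 (95% interval -2.82 to 0.53, limma adjusted p = 0.410). Without the esophagus array of mouse 1 it was -1.98 and passed the threshold (limma adjusted p = 0.0353), and without that of mouse 4, as within the first slide, it was -0.33 (limma adjusted p = 0.769). *Plin2*, *Sowahb* and *Cfap43* were nearest in pattern (0.26, 0.27 and 0.33).

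*Lynx1* encodes a membrane-bound modulator of nicotinic receptors that is best known from the brain. Its brighter probe at chr15:74578434-74578493 read 12.12, 10.89 and 10.74 in the esophagus and 11.75, 12.11 and 11.63 in the stomach. The difference was -0.58 ± 0.36 (95% interval -1.41 to 0.25, limma adjusted p = 0.398) and became -1.02 without the esophagus array of mouse 1 (limma adjusted p = 0.0181) and -0.33 without that of mouse 4 (limma adjusted p = 0.678). The second probe, at chr15:74581357-74581416, read 7.09, 5.65 and 6.04 against 6.56, 6.44 and 6.03, a difference of -0.08 ± 0.36 whose sign turned in 4 settings. In both probes, mouse 1 was the highest of the esophagus arrays. *Fam241b*, *Pcsk4* and *Plekhb2* were nearest to the brighter probe (0.13 each).

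*Ly6a*, the stem cell antigen Sca-1 of hematopoietic and other progenitors, was well above background in both tissues. At chr15:74825553-74825612 it read 17.28, 15.96 and 16.52 in the esophagus and 16.69, 16.73 and 17.35 in the stomach, and the difference was -0.33 ± 0.34 (95% interval -1.13 to 0.46, limma adjusted p = 0.645). *Ly6c1*, known from monocytes and endothelial cells, read 16.62, 15.55 and 16.07 against 16.14, 16.49 and 16.87 at its brighter probe, chr15:74875495-74875554. That difference was -0.42 ± 0.30 (95% interval -1.11 to 0.27, limma adjusted p = 0.475). The probe shared with *Ly6c2*, whose sequence is given above, pointed the other way. It read 13.85, 11.82 and 11.68 in the esophagus and 11.21, 11.41 and 11.85 in the stomach at chr15:74877785-74877844, a difference of 0.96 ± 0.54 (95% interval -0.29 to 2.21, limma adjusted p = 0.348). The excess rested on the esophagus array of mouse 1, and without it the difference was 0.26.

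The patterns of *Ly6a* and of the brighter *Ly6c1* probe were alike. Over the 6 arrays they differed by a root mean square of 0.13 after centering, which made *Ly6c1* the nearest of 14551 genes to *Ly6a*. In the other direction, *Them6* (0.10) and *Anks6* (0.13) came before *Ly6a* (0.13). *Them6* also lies within the chromosome 15 cluster. *Ccng1* and *Gm10796* followed *Ly6c1* in the list of *Ly6a* (0.14 each).

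*Ly6a* and *Ly6c1* are also made by blood and vessel cells, so the markers of these cells are given. Some of them had signal. Of the 9 immune genes, 4 were above background on all 3 esophagus arrays and 4 on all 3 stomach arrays. Of the 7 endothelial genes, 2 and 3 were. The immune markers *Ptprc* and *Laptm5* and the endothelial markers *Cdh5* and *Emcn* did not rise well above background in either tissue. Of 9 immune genes, 4, among them *Cd3g*, had no probe above background and 1, *Itgam*, was called, at its brightest probe with -2.62 ± 0.28, whereas its other 2 probes were not above background. Of 7 endothelial genes, 3 (*Cdh5*, *Emcn* and *Erg*) had no probe above background, and *Vwf* was called as higher in the stomach at a dim probe (at least 1.55-fold). None of 9 fibroblast and smooth muscle markers was called by limma, and 1, *Col1a2*, had an unadjusted p under 0.05. In each tissue, 1 of these 9 genes was above background on all 3 arrays, so few could be called. The calls in these lists stand beside 16.2% of all gene names with a called probe. Summed immune levels were 14.92, 13.27 and 12.46 in the esophagus organoids of mice 1, 2 and 4 and 13.59 to 14.11 in the stomach, and the high value of mouse 1 came with *Cd68*, a lysosomal protein of macrophages and other cells, at 14.77, 12.94 and 11.80. Summed endothelial levels were 9.11 to 9.57 in the esophagus and 9.31 to 9.36 in the stomach. Summed fibroblast and smooth muscle levels were 10.63, 10.50 and 9.28 in the esophagus organoids of mice 1, 2 and 4 and 9.81, 9.46 and 10.95 in the stomach, where mouse 4 was highest, as for *Ly6a*, *Ly6e* and both *Ly6c1* probes. The actin-binding protein gene *Tagln*, the one gene of this list above background on all 6 arrays, read 10.41, 10.13 and 8.55 in the esophagus and 9.30, 8.76 and 10.76 in the stomach. Whether cells other than epithelium add to the *Ly6a* and *Ly6c1* signal was not tested.

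*Lypd2*, the tenth gene, had a low signal throughout. At chr15:74562684-74562743 it read 6.43, 6.11 and 5.90 in the esophagus and 6.51, 6.24 and 6.81 in the stomach, a difference of -0.37 ± 0.21 (95% interval -0.86 to 0.12, limma adjusted p = 0.352). Its groups overlapped, and its nearest patterns, those of *Mir670hg*, *D5Ertd579e* and *Syap1*, lay at 0.05 each.

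The arrays of a tissue differed in a way that ran through many members. The esophagus organoids of mouse 1 gave the highest esophagus value for 10 of 12 probes, whereas mouse 1 was highest for 33.3% of the 21382 probes that were well above background on all 6 arrays. The esophagus organoids of mouse 4 gave the lowest value for 8 of 12 member probes and the highest for none, although they were highest for 42.9% of those probes. At mouse number 1 the difference between tissues was 0.60 for *Ly6a*, 0.48 for the brighter *Ly6c1* probe, 0.37 for the brighter *Lynx1* probe and 0.14 for *Psca*. At numbers 2 and 4 it was below 0 for these 4 probes, from -0.77 to -2.43.

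Within the stomach, 9 of the 12 member probes had one of 2 opposite orders of the mice, and the brighter *Lynx1* probe, *Lypd2* and *Lypd3* had 3 other orders. *Ly6d*, *Psca*, *Slurp1*, *Ly6g6c* and the dimmer *Lynx1* probe were highest in mouse 1 and lowest in mouse 4, an order found in 17.3% of the 21382 probes. *Ly6a*, *Ly6e* and both *Ly6c1* probes had the opposite order, found in 19.1%. The surface mucin *Muc5ac* read 15.65, 15.03 and 13.26 in mice 1, 2 and 4 and so had the first order. The gland mucin *Muc6*, with 7.39, 8.33 and 9.79, and the pepsinogen gene *Pgc*, with 13.15, 13.94 and 14.66, had the second. Of the 11 columnar markers, read at their brightest probe, 4 had the first order (*Gkn1*, *Gkn2*, *Muc5ac* and *Tff1*), 2 the second (*Muc6* and *Pgc*) and 5 another (*Krt7*, *Krt8*, *Krt18*, *Muc1* and *Tff2*). *Muc5ac*, *Muc6* and *Pgc* were described after their values were seen, the stomach organoids of mouse 4 were also harvested a day earlier, and the part of cell composition or harvest in these orders was not tested.

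**Figure D3:**
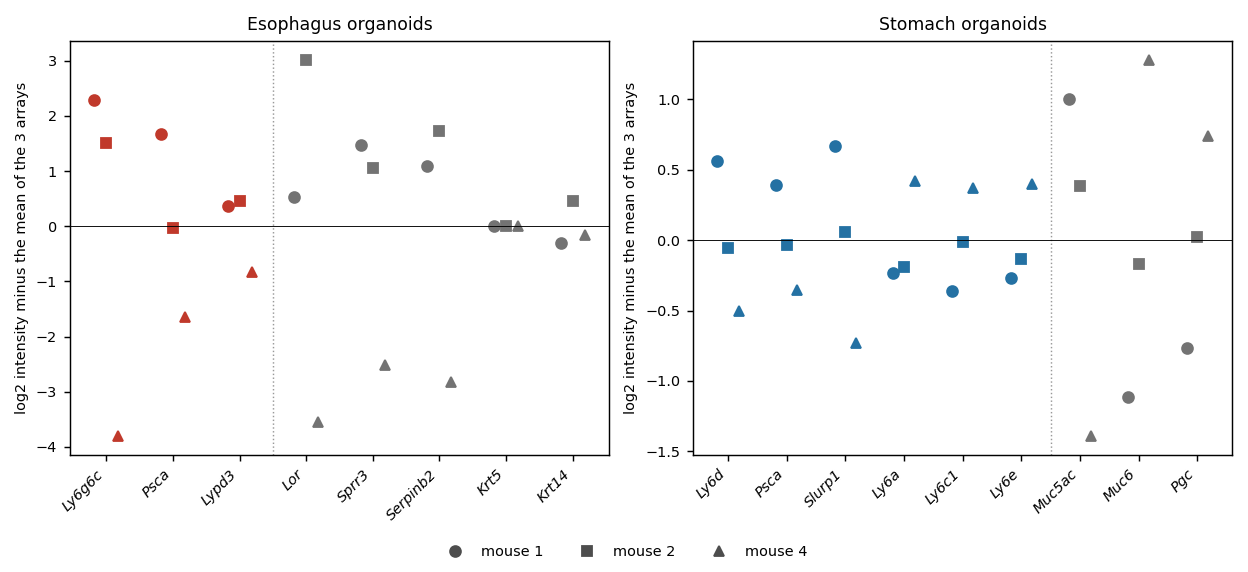
Log2 intensity of members (colored) and of marker genes (gray, right of the dotted line) minus the mean of the 3 arrays of that tissue, by mouse, for esophageal (left) and stomach (right) organoids. In the esophagus, mouse 4 lies lowest for *Ly6g6c*, *Psca*, *Lypd3*, *Lor*, *Sprr3* and *Serpinb2* while *Krt5* varies little. In the stomach, *Ly6d*, *Psca*, *Slurp1* and *Muc5ac* share one order of mice and *Ly6a*, *Ly6c1*, *Ly6e*, *Muc6* and *Pgc* the opposite one. *Lor*, *Sprr3*, *Serpinb2*, *Muc5ac*, *Muc6* and *Pgc* were picked after their values were seen. Of 11 columnar markers, 4 had the first order, 2 the opposite one and 5 another. Not plotted are *Krt1* and *Ivl*, lowest in mouse 2, and *Col17a1* and *Itgb4*, lowest in mouse 4 at their brightest probes.

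A single cluster on chromosome 15 holds 8 of the 10 members, and its member probes span 331 kb (chr15:74546879-74877844, mm9). Further family genes, from *I830127L07Rik* to *Gpihbp1*, lie beyond *Ly6c1* and are counted with the other family genes. The array has 24 probes in the span of the members, 18 of them for 14 family genes. From *Psca*, the order along the chromosome was *Slurp1*, *Lypd2*, *Slurp2*, *Lynx1*, *Ly6d*, *Ly6k*, *Gml*, *Gml2*, *2010109I03Rik* (a synonym of *Ly6m*), *Ly6e*, *Ly6i*, *Ly6a* and *Ly6c1*. Of the 18 family probes, 1 was called higher in the esophagus (*Ly6d*) and 2 higher in the stomach (*Slurp1* and *Ly6e*), and none of the 6 other probes was called by limma (0 with an unadjusted p under 0.05). Over the array, 5.94% and 6.22% of probes were called in these directions, and nothing particular to the cluster is read from the counts. The *Slurp1* and *Ly6d* probes, called in opposite directions, lay on either side of *Lypd2*, *Slurp2* and *Lynx1*, which were not called. *2010109I03Rik* read 10.63, 8.94 and 4.46 in the esophagus organoids of mice 1, 2 and 4 and 6.02 to 7.59 in the stomach, and was not called (1.34 ± 1.38, limma adjusted p = 0.644).

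On chromosome 7, the span from *Lypd5* to *Lypd4* covers 511 kb (chr7:25138766-25649763, mm9) and holds *Lypd3* with 6 other family genes. *Lypd3* and *Pinlyp* were called toward the esophagus and *Plaur*, the urokinase receptor itself, toward the stomach. *Plaur* read 9.99, 9.68 and 8.95 in the esophagus and 13.09, 13.47 and 13.98 in the stomach (-3.97 ± 0.32, limma adjusted p = 0.000128). The relatives *Lypd3* and *Plaur*, whose probes begin 287.2 and 121.8 kb into the span, thus had opposite directions at each mouse number. *Lypd5* was spread widely in the esophagus, with 10.27 in mouse 1, 8.42 in mouse 2 and 6.003 in mouse 4, against 7.69 to 7.83 in the stomach, and was not called (0.48 ± 0.90). Of the 23 other probes in this span, 2 were called toward the esophagus, those of *Cadm4* (1.79 ± 0.47) and *Phldb3* (2.01 ± 0.37), and 2 toward the stomach, those of *Kcnn4* (-3.69 ± 0.66) and *Ethe1* (-1.36 ± 0.19). The shares of all array probes called in these directions were 5.94% and 6.22%.

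In the chromosome 17 cluster, *Ly6g6c* and *Ly6g6d* are next to each other among the array's probes, and their differences had opposite signs. *Ly6g6d* read 7.34, 7.45 and 7.85 in the esophagus and 10.40, 10.20 and 9.88 in the stomach (-2.61 ± 0.20, limma adjusted p = 0.000114). *Ly6g6e* read 11.71, 11.37 and 9.32 against 10.51, 10.21 and 9.71 and was not called (0.65 ± 0.58). Its low esophagus value also came from mouse 4.

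**Figure D4:**
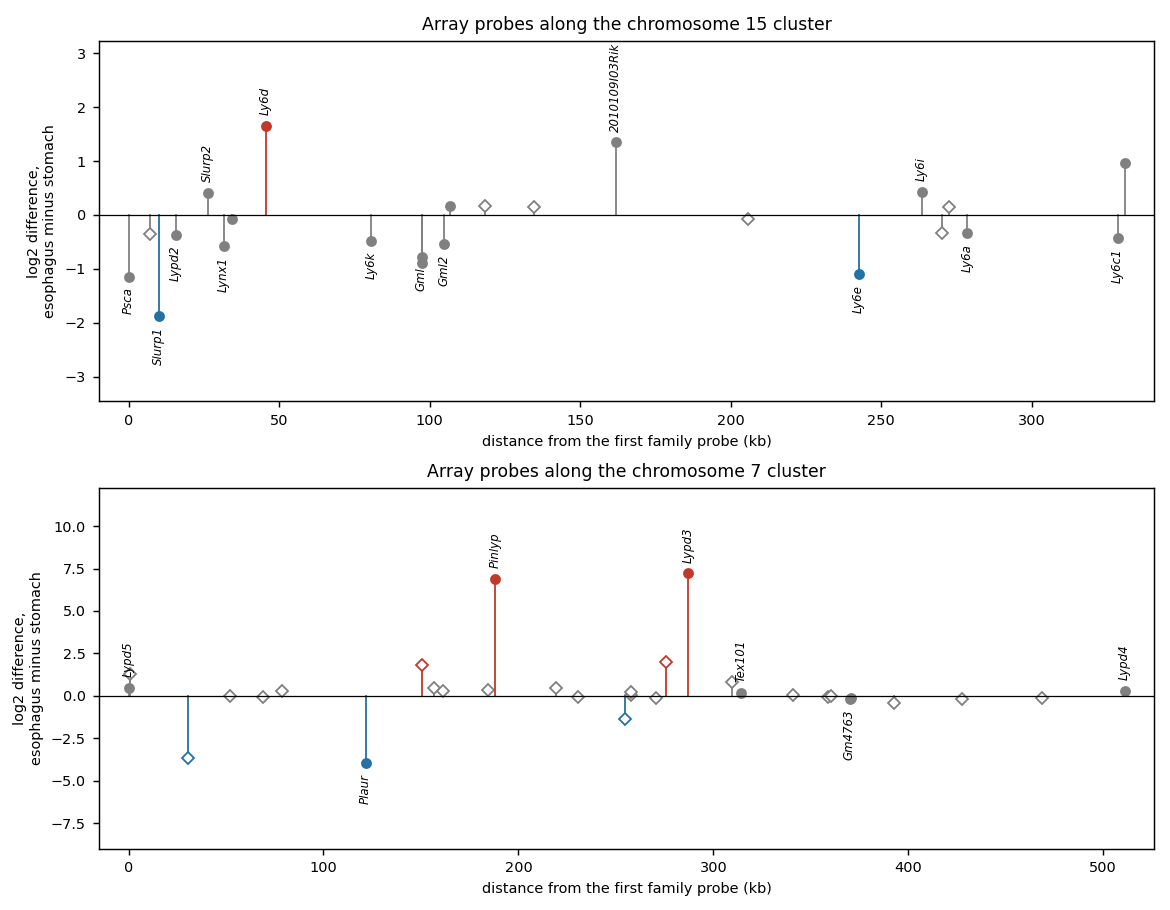
Log2 difference, esophagus minus stomach, of every array probe between the first and last member probe of the chromosome 15 cluster (top) and between *Lypd5* and *Lypd4* on chromosome 7 (bottom), by distance in kb from the first family probe; circles are family genes, open diamonds other genes, red called higher in the esophagus, blue called higher in the stomach, gray not called. *Ly6d* (1.65) and *Slurp1* (-1.87) stand close together on chromosome 15. On chromosome 7, the probes of *Plaur* (-3.97), *Pinlyp* (6.90) and *Lypd3* (7.22) begin at 121.8, 188.1 and 287.2 kb.

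Beyond the 10 genes, 34 other family genes were on the array with 39 probes. Of these, 1 was higher in the esophagus (*Pinlyp*), 4 in the stomach, 29 were not called, and 11 of the 34 had no probe above background. The 5 called genes stand beside 16.2% of all gene names with a called probe. The median difference over the brightest probes of all 34 genes was 0.05. Besides *Plaur* and *Ly6g6d*, the genes higher in the stomach were *Lypd8*, a colonic LU protein that binds flagella, and *Cd59a*, an inhibitor of the complement attack complex. *Lypd8* read 12.36, 11.95 and 9.02 in the stomach and was not above background on the esophagus arrays, so the stomach level was higher by at least 71.1-fold (limma adjusted p = 0.00118). *Cd59a* read 5.93, 6.01 and 5.53 against 6.92, 6.91 and 6.29 (-0.88 ± 0.23, limma adjusted p = 0.0426), and was above background on 2 of the 3 esophagus arrays.

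**Figure D5:**
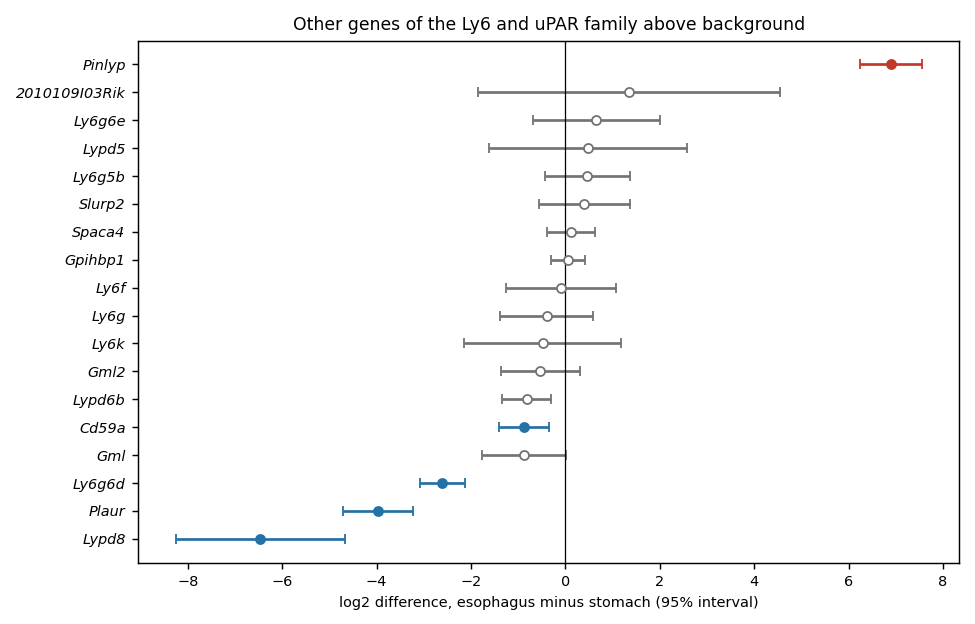
Log2 difference, esophagus minus stomach, with its 95% interval for the brightest probe of the 18 other family genes with 3 arrays above background in at least 1 tissue; filled points are called (red, esophagus; blue, stomach). *Pinlyp*, at 6.90, is the one gene called toward the esophagus, and *Lypd8*, *Plaur*, *Ly6g6d* and *Cd59a* are called toward the stomach, where the value of *Lypd8* rests on a dim esophagus signal.

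Partners of the uPAR branch were read next. AGR2, a secreted disulfide isomerase relative reported to bind C4.4A, had the opposite distribution from *Lypd3*: *Agr2* read 4.94 to 5.78 in the esophagus and 14.67 to 15.29 in the stomach (-9.60 ± 0.27, limma adjusted p = 4.63e-07). *Agr3* was dim and called at -0.62 ± 0.16, at least 1.29-fold toward the stomach. *Plau*, the urokinase that binds PLAUR, was higher in the esophagus, with 6.85, 8.59 and 7.30 against 5.19 to 5.96 (2.08 ± 0.43, limma adjusted p = 0.0183). *Serpinb2* was not above background in the stomach, and its esophagus level was higher by at least 82.6-fold (limma adjusted p = 0.00518). The other 5 of the 9 listed genes were not called, and 16.2% of all gene names were. Among them were the activator *Plat* (-0.98 ± 1.27), the inhibitor *Serpine2* (1.07 ± 0.45), and plasminogen (*Plg*) and vitronectin (*Vtn*), which were not above background. Ligand and receptor of the urokinase pair, *Plau* and *Plaur*, were thus called in opposite directions.

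Nicotinic receptor subunits, the known targets of SLURP1 and LYNX1, were mostly not measurable. Of 16 subunit genes, 11 had no probe above background, among them *Chrna7* and *Chrna9*. Of the list, 1 gene, *Chrnb1*, was called, beside 16.2% of all gene names. This subunit of the muscle-type receptor had at least 4.25-fold more signal in the stomach, where it read 7.20, 7.28 and 7.69 (limma adjusted p = 0.000153). *Chrna2*, *Chrnb2* and *Chrnb4* were above background on all 6 arrays and were not called, with differences of 0.02, 0.19 and 0.54. These array values do not tell whether receptor protein was present.

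The enzymes that build and attach the GPI anchor were expressed in both tissues. Of 29 genes, 26 were above background on all esophagus arrays and 27 on all stomach arrays. Of the list, beside 16.2% of all gene names called, 2 were higher in the esophagus, *Piga* (1.48 ± 0.21, limma adjusted p = 0.00329), part of the first step of anchor synthesis, and *Pigw* (0.93 ± 0.14, limma adjusted p = 0.00366), which acylates the inositol. Another 4 were higher in the stomach. *Pgap1*, which removes that acyl chain after attachment, differed by -2.73 ± 0.30 (limma adjusted p = 0.000726), and its second probe by -2.64. *Pign*, an ethanolamine phosphate transferase, differed by -1.90 ± 0.37 (limma adjusted p = 0.0128), while its dimmer probe was not called (0.21). *Pgap2*, of the lipid remodeling steps, differed by -0.85 ± 0.20 (limma adjusted p = 0.0297), and *Pigp* was called at its dimmer probe (-0.79) but not at its brighter one (-0.21). The median difference of the list was -0.21.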

How the data were processed

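Total RNA of 6 organoid cultures (3 esophagus, 3 stomach) was labeled with Cy3 and hybridized to Agilent 60-mer arrays, which the authors scanned and quantified in Feature Extraction 11.5.1.1. Their deposited spot files give raw and background intensity values with flags, with probe positions in mm9. The log2 values are those of the authors' deposited table, after background correction and quantile normalization. Running normexp (offset 15) and quantile normalization on median intensities came within 0.0726 of them, and the 2029 empty cells of the table were spots marked as outliers. The columns had medians of 5.24 to 5.25. Spots of a probe were averaged. In R (version 4.3.3), limma (version 3.58.1) compared the tissues over 55681 probes without a block, followed by Benjamini-Hochberg adjustment, which was tested on simulated data. Of spots, 45.5% to 51.1% were well above background and none was saturated; the number of arrays limits the precision.

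The labels number the mice in both tissues, and that equal numbers mark one animal is a reading of these labels; the correlations do not set such pairs apart. Deviations from tissue means correlated by 0.03, 0.01 and -0.01 within mice 1, 2 and 4, and by -0.07 to 0.04 between mice. Same-tissue arrays carry different numbers and are taken as separate animals.

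The 10 genes and all gene lists were chosen with earlier results of these data known. The text gives every member probe, from each list the called genes of largest difference (at most 4 per direction) and those behind counts of 5 or fewer, and for each member the 3 genes of nearest pattern. Some listed genes are not reported here. Listed symbols absent from the array were searched through synonyms in the RefSeq gene table (GRCm38.p6). Coordinates in mm9 come from the files and those in GRCm38.p6 from the promoter table. Alternatives were normexp on mean intensities with offsets of 16 and 50, 75th percentile scaling of the processed signal, outlier spots kept, dim probes left out, eBayes with trend and robust variances, the mouse or slide as a block, unadjusted p with a 1.5-fold change, and each array left out.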

Additional observations from a re-analysis of the deposited data

How the results depend on the processing

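The directions of 11 of the 12 probes held in the 14 alternatives, and the call of *Lypd3* held in each. The 12 probes and 10 genes gave a count of 4 calls without a block, of 5 with the mouse as a replicate block, and of 1 to 6 when each array was left out. Apart from *Ly6g6c*, the replicate block changed no call among the members. With the processed signal in place of the deposited values, scaled to the 75th percentile, the median difference of all probes was 0.19 instead of 0.02. Of the other 34 family genes, 5 were called without a block, 6 with the replicate block, 4 to 6 in the other adjusted fits, and 8 with unadjusted p under 0.05 and 1.5-fold, which calls more probes by construction. *Ly6g6c* missed the threshold in 9 alternatives, among them an offset of 50 (limma adjusted p = 0.129) and eBayes with trend and robust variances (limma adjusted p = 0.204). It also passed with the processed signal so scaled (5.25, limma adjusted p = 0.0297) and with dim probes left out (limma adjusted p = 0.0293), where fewer probes are adjusted for. *Lynx1* (second probe) turned to 0.028 with the slide as a block and ranged from -0.50 to 0.22 when each array was left out, and the cause was not tested. The slide block and the fit without the esophagus array of mouse 4 are the same comparison. With 3 arrays per tissue, differences of less than about the spread within a tissue, as for *Psca*, could not be told from 0.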
